A study of Homo sapiens with 2 samples.

Results

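The 40 genes described here encode the autophagy machinery, from the kinase complex that starts an autophagosome to the lysosome that digests its content, together with genes of mitophagy, the removal of mitochondria by the same route. They were taken by symbol from a list, and all 40 were found among the 46425 gene symbols of the deposited table. The RNA came from NK92, an established cell line with the features of natural killer (NK) cells, grown in medium with human serum. The cells were held in culture for 18 h, divided equally over 2 plates and kept for 6 h more, either with nothing added or with 10 µg/mL of PPMX-T003, an antibody that blocks transferrin receptor 1 (TfR1), the receptor for transferrin-bound iron. From each plate 1 library of polyadenylated RNA was made with a strand-preserving kit, and the series was deposited for a connectivity analysis of the antibody's expression signature. The unexposed library held 46766416 counts and the PPMX-T003 library 43178462, of which the 40 genes took 88162 (0.189%) and 81199 (0.188%).

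With 1 library per condition, no difference given here has a replicate check and no p-value is given. The columns carry the names 0h and 6h although both plates were cultured for equal times according to the labels. The 0h column was taken to hold the unexposed plate, and if its name stands for an earlier harvest, time in culture and exposure cannot be told apart. Differences between the libraries are given as log2 fold changes of counts relative to the library total (CPM) after scaling, with a prior count of 2, always PPMX-T003 against unexposed. The range after each is a 95% Clopper-Pearson interval on the division of a gene's counts between the libraries, which covers counting error only and compares these libraries, not the conditions. Levels of different genes are compared in TPM, a measure scaled by transcript length, which the authors rounded to whole numbers.

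The 8 markers of NK cells were all detected, with NKG7, a granule protein, at 3215 and 3445 TPM in the unexposed and PPMX-T003 libraries and the adhesion molecule NCAM1 (CD56) at 89 and 82 TPM. The summed level of the 8 markers was 6482 and 7088 TPM. Of the 8, 6 had a counting interval above 0 and NCAM1 below 0, beside 21.8% and 23.9% of all genes compared. Among genes with at least 200 counts these shares were 25.7% and 28.6%. Their median log2 fold change was 0.16, and 0.052 and 0.067 after removal of fits on transcript length and GC content, the second of them chosen after seeing the data. Of 6 T cell markers, CD3E stood at 673 and 698 TPM and TRAC at 75 and 69 TPM, CD4 had 4 and 0 counts, and CD3D, CD3G and CD8A were listed at 0. Their summed level was 748 and 767 TPM. The B cell marker MS4A1 was listed at 0, and CD79A had 14 and 12 counts. Of the 3 myeloid markers, CD14 had 0 and 7 counts, LYZ 2 and 0, and CSF1R 22 and 9. The erythroid markers HBB and HBA1 and the epithelial and stromal markers EPCAM and COL1A1 were listed at 0 in both libraries. By counting error alone a listed 0 allows up to 3 counts, which is 0.0641 CPM in the unexposed library and 0.0695 CPM in the PPMX-T003 library. CD3D and CD3G were at 0 beside an abundant CD3E, however, and widely expressed genes such as CTSB and ULK2 were at 0 too. Whether such zeros come from the quantification was not tested, and a listed 0 is not read here as absence of the transcript.

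Autophagy begins when the ULK1 kinase complex and the class III PI3-kinase mark a membrane with the lipid PI3P. ATG9 vesicles and lipid transfer proteins enlarge this membrane, and a set of conjugation enzymes attaches ATG8 proteins such as LC3 to it. Cargo receptors tie the material to be degraded to the ATG8 proteins, and the closed autophagosome fuses with a lysosome. In mitophagy the kinase PINK1 accumulates on damaged mitochondria, and outer membrane receptors such as FUNDC1 can recruit ATG8 proteins directly. The transcription factors TFEB and TFE3 activate genes of lysosomes and autophagy. Ferritin, the store of cellular iron, is itself degraded by this route through the receptor NCOA4.

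All 40 genes were expressed, each with more than the 20 summed counts required for comparison. The most abundant was ATG3, the enzyme that transfers ATG8 proteins to lipid, at 178 TPM in the unexposed library and 181 TPM in the PPMX-T003 library. The next was BECN1, the scaffold of the class III PI3-kinase, at 137 and 133 TPM. LAMP1, a heavily glycosylated protein of the lysosomal membrane, followed at 98 and 106 TPM. At the other end, PINK1 and the receptor OPTN were at 1 TPM in both libraries, and TFEB was at 2 and 1 TPM. The median level of the 40 genes was 25 and 23.5 TPM, against 16 and 16 TPM for the genes compared.

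Between the libraries the 40 genes differed little. PINK1 was the only gene of the 40 at least 2-fold higher in the PPMX-T003 library, and 0 were 2-fold lower, beside 1.27% and 1.38% of the 13665 genes with at least 20 summed counts (173 higher, 188 lower). At a log2 fold change of 0.32 or more in size, PINK1 was again the only higher gene and TFEB the only lower gene of the 40, beside 9.37% and 9.48% of all genes (1280 and 1295). Both are poorly expressed. They and OPTN are the 3 genes of the 40 with 50 to 200 summed counts, where 2.01% of 1794 genes were 2-fold higher and 21.4% were at -0.32 or lower. Of the 37 with at least 200 counts, 0 passed 0.32 in either direction, beside 3.44% higher and 4.35% lower of the 10419 genes with that minimum. A count of 0 among 37 genes lies near such small shares.

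The counting interval lay above 0 for 7 of the 40 genes (17.5%) and below 0 for 9 (22.5%), and it held 0 for 24. Among all genes compared, 21.8% had an interval above 0 (2983 genes) and 23.9% below 0 (3262 genes), so the shares among the 40 were no larger than in the transcriptome at large. Of the 37 with at least 200 counts, 6 (16.2%) had an interval above 0 and 8 (21.6%) below 0. Among all genes with at least 200 counts the shares were 25.7% and 28.6%. Both pairs of shares of all genes are to be set beside the counts of each group by role that follow. The median log2 fold change of the 40 genes was -0.020, that of all genes -0.0020. Over the 37 genes with at least 200 counts the fold changes had an SD of 0.12, beside an SD of 0.21 over all genes with that minimum. The latter includes extremes of -4.26 and 4.70. Depth was not matched further, and the fewest counts among the 37 were 564, for ATG10. The central 95% of those genes reached from -0.39 to 0.36, and 0 of the 37 lay outside it.

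The ULK1 complex receives the starvation signal and consists of the kinase ULK1, its partners ATG13 and ATG101, and the large scaffold RB1CC1 (FIP200). RB1CC1 had 2517 counts in the unexposed library and 2034 in the PPMX-T003 library, a log2 fold change of -0.19 (-0.28 to -0.11). ATG101 had 1828 and 1807 counts, 0.10 (0.0060 to 0.20). These were the lower and the higher gene of the complex, while the intervals of ULK1 (0.15, -0.013 to 0.31) and ATG13 (0.063, -0.014 to 0.14) held 0. Fold changes were also computed after removal of a fit on transcript length and GC content, with all coding transcripts of a gene or, as an alternative chosen after seeing the data, with RefSeq-paired transcripts. Ranges given after a fit are the counting intervals shifted by the fitted value. They leave out the error of the fit and of the transcript lengths, so bounds close to 0 decide little. RB1CC1 was at -0.14 (-0.23 to -0.060) after the fit on all coding transcripts and at -0.030 (-0.11 to 0.055) after the fit on RefSeq-paired transcripts. The length used for RB1CC1 was 631 bases in the former and 6624.5 in the latter. Among genes described below, the lengths also differed widely for PIK3R4 (698 and 5015) and ATG4C (665 and 2914). For ATG12 the former was the longer (2881.5 and 1256). ATG101 was at -0.025 and -0.029, and both intervals held 0.

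Of the class III PI3-kinase genes, 3 of 5 had an interval below 0 and 0 above 0, beside 23.9% and 21.8% of all genes. Among genes with at least 200 counts these shares were 28.6% and 25.7%. ATG14, which directs the kinase to the site where autophagosomes form, had 421 and 320 counts, a log2 fold change of -0.28 (-0.49 to -0.065). UVRAG, which replaces ATG14 in the endosomal form of the complex, had 1257 and 1034 counts, -0.16 (-0.28 to -0.045). PIK3R4, the regulatory subunit VPS15, had 2935 and 2431 counts, -0.15 (-0.23 to -0.077). The catalytic subunit PIK3C3 (VPS34) had 1062 and 1003 counts, 0.035 (-0.091 to 0.16), and the scaffold BECN1 5741 and 5332 counts, 0.011 (-0.043 to 0.065). The catalytic subunit and the scaffold were thus not among the lower genes. After the fit on all coding transcripts was removed, PIK3R4 was at -0.13 (-0.21 to -0.053) and UVRAG at -0.12 (-0.24 to -0.0015), both still below 0, while ATG14 was at -0.19 (-0.40 to 0.024). With RefSeq-paired transcripts ATG14 was at -0.20, UVRAG at -0.11 and PIK3R4 at -0.066, and these 3 intervals held 0. PIK3C3 lay above 0 under both, at 0.13 (0.0012 to 0.25) and 0.21 (0.087 to 0.34).

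Among the 6 genes of ATG9, lipid transfer and PI3P binding, ATG2B was lower and WIPI2 higher. ATG2B, a lipid transfer protein that feeds the growing membrane, had 1607 and 1295 counts, a log2 fold change of -0.19 (-0.30 to -0.088), while its paralogue ATG2A had 1760 and 1641 counts, 0.016 (-0.082 to 0.11). WIPI2, which binds PI3P and recruits ATG16L1, had 1786 and 1813 counts, 0.14 (0.044 to 0.23). The related WIPI1 was at -0.066 (-0.17 to 0.032). The scramblase ATG9A (0.030) and the endoplasmic reticulum protein VMP1 (-0.040) had intervals that held 0. After removal of the fits on all coding and on RefSeq-paired transcripts, ATG2B was at -0.056 and -0.039 and WIPI2 at 0.090 and 0.064, and all of these intervals held 0. VMP1 was at -0.041 (-0.094 to 0.012) and -0.10 (-0.16 to -0.052), the latter below 0.

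The 10 conjugation genes included 2 with an interval above 0 and 2 below 0. ATG3 had 6499 and 6315 counts in the larger unexposed and the smaller PPMX-T003 library, which is a log2 fold change of 0.076 (0.026 to 0.13). ATG4B, the main protease that trims ATG8 proteins, had 5071 and 4947 counts, 0.082 (0.025 to 0.14). Its paralogue ATG4C had 776 and 593 counts, -0.27 (-0.43 to -0.11). ATG12, the ubiquitin-like protein that is joined to ATG5, had 3412 and 2897 counts, -0.12 (-0.19 to -0.047). The other conjugation genes ATG4A, ATG4D, ATG5, ATG7, ATG10 and ATG16L1 had intervals that held 0. Of these, ATG5 went from -0.019 to 0.10 (0.022 to 0.18) and 0.081 (0.00044 to 0.16) after removal of the fits on all coding and on RefSeq-paired transcripts. ATG4B supplied 59.4% of the summed TPM of the ATG4 proteases in the unexposed library and 61.8% in the PPMX-T003 library, and ATG4C 9.42% and 7.35%. ATG3 kept an interval above 0 after either fit was removed, whereas ATG4B was at -0.032 and 0.0031 with intervals that held 0. ATG4C was at -0.18 (-0.34 to -0.023) after the fit on all coding transcripts and -0.14 (-0.30 to 0.013) with RefSeq-paired transcripts. ATG12 was at 0.0075 (-0.065 to 0.079) and -0.11 (-0.19 to -0.043).

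The ATG8 proteins, the ubiquitin-like tags of the autophagosome, were alike in both libraries. GABARAPL2 was the most abundant at 87 and 85 TPM, followed by GABARAP at 55 and 53 TPM, MAP1LC3B at 39 and 37 TPM and GABARAPL1 at 20 and 19 TPM. GABARAPL2 thereby made up 43.1% and 43.6% of the summed ATG8 TPM, and MAP1LC3B, the gene of the widely used marker LC3B, 19.3% and 19.0%. MAP1LC3A and MAP1LC3C were listed at 0. The log2 fold changes ran from -0.029 for MAP1LC3B (-0.13 to 0.070) to 0.021 for GABARAPL2 (-0.077 to 0.12), and all 4 intervals held 0. The interval with the widest reach, that of GABARAPL1, ran from -0.17 to 0.13, so log2 differences of 0.32 lay outside the counting error of each. The near-copy MAP1LC3B2 had 9 and 10 counts and the copies GABARAPL3 and MAP1LC3BP1 were listed at 0. How reads were divided with them was not tested.

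SQSTM1 stood out among the cargo receptors. The gene (NCBI Gene 8878, chr5:179806393-179838078, GRCh38.p14) encodes p62, which links ubiquitinated proteins to LC3. It had 1804 counts in the unexposed library and 2052 in the PPMX-T003 library although the latter was smaller, with a level of 30 and 36 TPM. The log2 fold change of 0.30 (0.21 to 0.40) was higher than that of 96.0% of genes with at least 200 counts, and it was 0.17 and 0.24 after removal of the fits on all coding and on RefSeq-paired transcripts. SQSTM1 shares exonic sequence on the opposite strand with MGAT4B (1746 and 1857 counts, 0.21) and MRNIP (220 and 214 counts, 0.077), and whether reads were counted by strand is not given in the sources used here. The other receptors NBR1 (-0.022), CALCOCO2 (-0.066), TAX1BP1 (-0.029) and OPTN (0.075) had intervals that held 0. OPTN had only 72 and 70 counts, and its interval from -0.42 to 0.57 leaves a log2 difference of 0.32 undetectable at this depth.

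PINK1 gave the largest fold change of the 40 genes, from few counts. The gene (NCBI Gene 65018, chr1:20633458-20651511, GRCh38.p14) had 39 counts in the unexposed library and 74 in the PPMX-T003 library, a log2 fold change of 1.00 (0.46 to 1.64). Its TPM was 1 in both libraries after rounding. On the opposite strand lies PINK1-AS (chr1:20642657-20652193), an antisense gene that shares exonic sequence with PINK1 and had 525 and 506 counts, 0.064 (-0.11 to 0.24). Summed over both genes, an alternative chosen after seeing the data, there were 564 and 580 counts, 0.16 (-0.012 to 0.33), an interval that held 0. With the fits on transcript length and GC content removed, the value of PINK1 alone was 0.94 and 0.93, short of 2-fold. Without strand, reads of PINK1 and of PINK1-AS cannot be told apart where they overlap, and whether the counts at this locus were divided differently in the 2 libraries was not tested. FUNDC1, the other mitophagy gene, had 1099 and 982 counts at 50 and 47 TPM, -0.045 (-0.17 to 0.080).

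Of the lysosomal genes, TFEB and LAMP2 were lower and LAMP1 was higher in the PPMX-T003 library. TFEB (NCBI Gene 7942, chr6:41683978-41736223) had 103 and 61 counts, a log2 fold change of -0.62 (-1.12 to -0.17), and its value stayed between -0.76 and -0.58 under the alternatives tried. TFE3, the better expressed of these factors at 27 and 26 TPM, had 1838 and 1664 counts, -0.026 (-0.12 to 0.070). LAMP1 (NCBI Gene 3916, chr13:113297239-113323672) had 5484 and 5721 counts, 0.18 (0.12 to 0.23). LAMP2 (NCBI Gene 3920, chrX:120426148-120469349), which encodes the receptor of chaperone-mediated autophagy among its splice forms, had 6415 and 5465 counts, -0.11 (-0.17 to -0.062). The summed level of LAMP1 and LAMP2 was 170 TPM in both libraries, of which LAMP1 held 57.6% and 62.4%. After removal of the fit on all coding transcripts LAMP1 was at 0.15 (0.095 to 0.20), while LAMP2 was at -0.018 (-0.070 to 0.035). With RefSeq-paired transcripts LAMP1 was at 0.13 (0.077 to 0.18). LAMP2 was then at -0.052 (-0.10 to 2.9e-05), an interval that only just held 0.

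TFEB and TFE3 bind an E-box-type element, and promoters of the 40 genes were searched for its palindromic form TCACGTGA, which contains the E-box CACGTG and is its own reverse complement, so that both strands were read at once. Of the 40 genes, 35 had a promoter entry in RefSeq (GRCh38.p14), spanning 250 bases before to 50 bases after the start site. ATG4D, LAMP2, PINK1, RB1CC1 and UVRAG had none. The motif was found in LAMP1 and ATG3, 2 of 35, beside 233 of 10157 genes compared (2.29%) and 344 of all 35116 windows of that length (0.980%). The shorter CACGTG was found in LAMP1, ATG3 and ATG14, 3 of 35 (8.57%), beside 12.7% of the genes compared. Of the other pathway genes described further on, 18 of 79 with an entry held the shorter CACGTG (22.8%). The longer motif TCACGTGA was held by 6 of the 79 (7.59%), and 2 of these 6 had an interval above 0 and 1 below 0. The stretches with the motif in capitals are shown for both LAMP1 and ATG3, for the higher genes MCOLN1 (0.40) and VPS11 (0.13) and for the lower gene NRBF2 (-0.21). The other 3, GAA (0.36), CTSA (0.040) and RRAGB (-0.022), had intervals that held 0.
LAMP1, chr13:113297188-113297266, plus strand: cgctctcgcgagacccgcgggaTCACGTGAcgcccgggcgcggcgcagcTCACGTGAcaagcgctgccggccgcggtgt
ATG3, chr3:112561933-112561980, minus strand: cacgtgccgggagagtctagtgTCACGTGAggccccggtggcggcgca
MCOLN1, chr19:7522560-7522638, plus strand: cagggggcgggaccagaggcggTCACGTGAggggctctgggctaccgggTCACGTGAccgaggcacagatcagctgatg
VPS11, chr11:119067761-119067812, plus strand: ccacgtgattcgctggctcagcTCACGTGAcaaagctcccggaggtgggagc
NRBF2, chr10:63133078-63133110, plus strand: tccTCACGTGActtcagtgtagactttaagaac
LAMP1 and MCOLN1 each hold 2 copies, which begin 29 and 2 bases before the start site in LAMP1 and 42 and 15 bases before it in MCOLN1. The copy in VPS11 begins 35 bases before the start site and that in NRBF2 247 bases before it. In ATG3 the motif begins at base 5 of the transcript. Both LAMP1 and ATG3 had intervals above 0 (0.18 and 0.076). Over the 233 genes compared that hold the motif, however, the median log2 fold change was -0.014. Of these 233 genes, 65 had an interval above 0 and 75 below 0, beside 21.8% and 23.9% of all genes compared. A match describes the letters in these windows and says nothing about binding.

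The differences among the 40 genes went together with the GC content of their transcripts, as they did across all genes. Across the 40 genes the Spearman correlation of GC content and log2 fold change was 0.56, and across 12537 genes with known transcripts it was 0.37. All values come from the same 2 libraries and genes are not independent replicates, so these are descriptions. The 13 genes with the lowest GC content, from 34.8% to 44.8%, had a median log2 fold change of -0.11, and 12 of them were below 0 in value. The 13 with the highest, from 53.3% to 64.2%, had a median of 0.082, and 11 of them were above 0. Of the 9 intervals below 0, 7 belonged to the low-GC genes, including ATG4C, RB1CC1, ATG2B and LAMP2. TFEB, with a GC content of 62.5%, and TFE3 were the 2 high-GC genes with values below 0.

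A robust regression of log2 fold change on transcript length and GC content was therefore fitted to 10156 genes with at least 200 counts and removed. The medians of the low-GC and high-GC genes were then -0.018 and -0.025, and the correlation across the 40 genes was -0.020. The interval lay above 0 for 6 genes and below 0 for 5 after the fit on all coding transcripts, and above 0 for 6 and below 0 for 3 after the fit on RefSeq-paired transcripts, which was chosen after seeing the data. ATG3, SQSTM1, PINK1 and LAMP1 were above 0 without the fit and with both, and TFEB was the only gene below 0 in all of these. What the GC trend stems from was not tested.

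The rest of the pathway was described with 104 other genes in 6 lists, of which 14 were listed at 0 in both libraries and 88 had enough counts. Of the 88, 27 intervals (30.7%) lay above 0 and 24 (27.3%) below, beside 21.8% and 23.9% of all genes compared. Among genes with at least 200 counts, as most of the 88 had, the shares were 25.7% and 28.6%. Both pairs of shares are also to be set beside the counts of each list. The 88 genes had a median log2 fold change of 0.048 before and 0.013 after removal of the fit on all coding transcripts. For each named gene, values after removal of the fits on all coding and on RefSeq-paired transcripts are given in that order. At a log2 fold change of 0.32 or more in size, 4 of the 88 were higher and 1 was lower, beside the shares of 9.37% and 9.48% among all genes. Among genes with at least 200 counts, as most of the 88 had, these shares were 3.44% and 4.35%. Of the 4 higher genes, FOXO1 and GAA had fewer than 200 counts.

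Other genes of autophagosome formation had 1 interval above 0 and 4 below among 10, with a median of -0.0074. ATG16L2, a paralogue of ATG16L1, had 639 and 724 counts, 0.30 (0.14 to 0.45). NRBF2, a further subunit of the ATG14 form of the PI3-kinase, had 1454 and 1156 counts, -0.21 (-0.33 to -0.10), in the same direction as ATG14. SH3GLB1 (BIF-1), which binds the UVRAG form of the complex, had 7036 and 5816 counts, -0.16 (-0.21 to -0.11). After the fits ATG16L2 was at 0.20 and 0.17, NRBF2 at -0.16 and -0.19, and SH3GLB1 at -0.011 and -0.017. ULK2, ATG9B, MAP1LC3A, MAP1LC3C and GABARAPL3 were listed at 0.

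Genes for fusion of autophagosomes with lysosomes had 3 intervals above 0 and 2 below among 15, with a median of 0.055. VPS18, a core subunit of the tethering complex HOPS, had 2013 and 2099 counts, 0.18 (0.089 to 0.27). The autophagosomal SNARE STX17 had 2584 and 2164 counts, -0.14 (-0.22 to -0.056). The tether EPG5 had 1799 and 1495 counts, -0.15 (-0.25 to -0.050). After the fits VPS18 was at 0.11 and 0.11, STX17 at -0.10 and -0.085, and EPG5 at -0.034 and -0.017.

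Other mitophagy genes had 5 intervals above 0 and 2 below among 12, with a median of 0.052. The receptor gene BNIP3 was listed at 0. FKBP8, a mitophagy receptor of the outer membrane, had 5751 and 6021 counts, 0.18 (0.13 to 0.24). TOMM7, which stabilises PINK1 at the outer membrane, had 1771 and 1836 counts, 0.17 (0.074 to 0.26). TBK1, a kinase that phosphorylates OPTN and SQSTM1, had 3134 and 2507 counts, -0.20 (-0.28 to -0.13). After the fits FKBP8 was at 0.020 and 0.018, TOMM7 at 0.15 and 0.12, and TBK1 at -0.21 and -0.11.

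Other receptors of selective autophagy had 2 intervals above 0 and 5 below among 8, with a median of -0.089, and -0.035 once the fit on all coding transcripts was removed. TEX264, a receptor for the endoplasmic reticulum, had 1301 and 1506 counts, 0.33 (0.22 to 0.44), and shares exonic sequence with RAD54L2. SEC62 had 5236 and 4138 counts, -0.22 (-0.28 to -0.16), and ATL3 4356 and 3555 counts, -0.18 (-0.24 to -0.11), both also receptors for the endoplasmic reticulum. After the fits TEX264 was at 0.21 and 0.18, SEC62 at -0.089 and -0.056, and ATL3 at -0.16 and -0.095. NCOA4, the ferritin receptor, had 10869 and 9507 counts at 147 and 134 TPM, -0.076 (-0.12 to -0.036), and -0.031 and -0.057 after the fits. It was singled out for its role in iron handling, after its values were seen. RETREG1 and WDFY3 were listed at 0.

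Lysosomal hydrolases and membrane proteins had 10 intervals above 0 and 5 below among 28, with a median of 0.048, and 0.026 once the fit on all coding transcripts was removed. MCOLN1, a calcium and iron channel of the lysosomal membrane, had 512 and 622 counts, 0.40 (0.23 to 0.57), and shares exonic sequence with PNPLA6. The protease gene CTSD had 7492 and 7979 counts, 0.21 (0.16 to 0.25). After the fits MCOLN1 was at 0.25 and 0.28 and CTSD at 0.081 and 0.071. CTSB, CTSH and CTSL, proteases of the same compartment, were listed at 0 in both libraries, which, as said of the other zeros, is not read as absence.

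Regulators of TFEB, TFE3 and nutrient sensing at the lysosome had 6 intervals above 0 and 6 below among 16, with a median of 0.021. TFEC, which belongs to the same family as TFEB, had 5046 and 3449 counts, -0.43 (-0.49 to -0.37), and -0.23 and -0.23 after the fits. It was the most abundant gene of this family in the unexposed library at 36 TPM, and level with TFE3 at 26 TPM in the PPMX-T003 library, while MITF was listed at 0. FOXO1, a transcription factor that also activates autophagy genes, had 73 and 119 counts, 0.80 (0.39 to 1.26), 0.89 and 0.88 after the fits, and shares exonic sequence with LINC00598. FOXO1 had only 192 counts in all, at 0 and 1 TPM. FOXO3, of the same family and list, went the other way, with 2490 and 1993 counts, -0.20 (-0.29 to -0.12), and -0.14 and -0.13 after the fits. LAMTOR1, which anchors the Ragulator complex to the lysosome, had 3236 and 3580 counts, 0.26 (0.19 to 0.33). The 5 LAMTOR genes of that complex accounted for 5 of the 6 intervals above 0, with fold changes from 0.13 for LAMTOR5 to that of LAMTOR1. After the fits the 5 values lay further apart. LAMTOR1 was at 0.21 and 0.14 and LAMTOR3 at 0.27 and 0.24, while LAMTOR5 was at 0.11 and 0.038, LAMTOR4 at 0.051 and -0.0052 and LAMTOR2 at 0.029 and -0.027. RRAGD was listed at 0.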

How the data were processed

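RNA of 2 NK92 cultures, 1 library each, was analysed. Reads were trimmed with Trimmomatic 0.38, mapped with HISAT2 2.2.0 to hg38 and quantified with StringTie 2.1.3b, and edgeR 3.17 was named for the authors' comparison, according to the submitters' processing notes and the methods. The authors deposited read counts per gene, which are not scaled between libraries and have commas between groups of digits. The authors also deposited FPKM and TPM rounded to whole numbers, which were handled as a score, and FPKM was not used. StringTie divides reads of overlapping genes by an estimate. In GENCODE 29, 4 of the 40 genes share exonic sequence with another gene on the same strand (ATG9A, VMP1, GABARAP, PINK1) and 21 on the opposite strand.

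Counts were scaled by the trimmed mean of M-values after trimming 30% of the log ratios and 5% of the mean levels, which gave factors of 1.00 for both. The tools were Python 3.11.15, pandas 2.3.3, statsmodels 0.14.6 for the regression, scipy 1.17.1 for the intervals, matplotlib 3.10.9 for the plots and numpy 2.4.6. The scaling, the log2 fold changes and the counting intervals were tested on simulated counts that varied by counting error only. The regression on length and GC content and the promoter search were not part of that test. Transcript length and GC content came from GENCODE 29 as medians over coding transcripts, or over all transcripts of a gene without coding ones, and were known for 91.7% of the genes compared, to which fitted values are limited. RefSeq-paired transcripts were known for 86.1%, and the medians were used for the rest. Alternatives were 3 other scalings, prior counts of 0.5 and 5, other count minimums and thresholds, TPM with a pseudocount of 1, removal of the fit on length and GC content, and exclusion of genes that share exons on the same strand. Genes that share exons only on the opposite strand were kept in it. RefSeq-paired transcripts and the sum of PINK1 and PINK1-AS were added after seeing the data. The 40 genes and the lists were chosen with earlier results of these data known. All 40 genes are named or counted, and of each further list the 3 genes whose interval bound nearest to 0 was farthest from it. Genes beyond these were named after their values were seen. Some genes of the further lists and markers are counted in the list totals but not reported here by name.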

Additional observations from a re-analysis of the deposited data

How the results depend on the processing

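No paired analysis was possible because the unexposed and the PPMX-T003 culture gave 1 library each, and no replicate could be left out. Of 434 fold changes of the 40 genes under the alternatives, 406 stayed within their counting interval. In 30 of the 434, over 16 genes, the sign differed from the main value, 25 of them with a fit on length and GC content removed. The main interval held 0 for 26 of the 30, among them values of ATG4D, ATG5, ATG9A and TAX1BP1, and lay outside 0 for 4. ATG101 turned to -0.025 and ATG12 to 0.0075 and ATG4B to -0.032 with the fit on length and GC content removed, and ATG101 to -0.029 with the fit on RefSeq-paired transcripts removed, an alternative chosen after seeing the data. The cause was not tested. Genes with an interval below 0 among the 40 went from 9 to 5 with the first fit removed and to 3 with the second. The median of the 40, -0.020, was -0.0083 with upper-quartile scaling and -0.061 with TPM, and their mean was -0.0064. The count of 1 gene of the 40 with a log2 fold change of at least 0.32 became 0 with a minimum of 200 counts, 0 with TPM, 0 without the genes that share exons on the same strand (PINK1 left with them, for MIR6084) and 2 at a log2 threshold of 0.20. The count of 1 gene at -0.32 or lower became 0 with a minimum of 200 counts, 3 with TPM, where ATG14 lies on the threshold, and 3 at a threshold of -0.20. PINK1 fell just short of 2-fold with median-of-ratios scaling (0.99), a prior count of 5 (0.95) and either fit removed (0.94 and 0.93), and had a TPM difference of 0. The 173 genes of the whole table that were 2-fold higher became 1448 with a minimum of 1 count, 13 with 200 counts and 538 at 1.5-fold. The 188 that were 2-fold lower became 1033 with a minimum of 1 count, 8 with 200 counts, 287 with TPM and 525 at 1.5-fold. Of the 12537 genes with known transcripts, 122 were 2-fold higher before and 113 and 109 after removal of the fits on all coding and on RefSeq-paired transcripts, and 131 were lower before and 143 and 149 after. Depth limits PINK1, TFEB and OPTN, whose intervals are the widest of the 40.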
